A study of Rattus norvegicus with 8 samples.

Results

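Txnip, the alpha-arrestins Arrdc1 to Arrdc4, the thioredoxins Txn1 and Txn2 and the thioredoxin reductases Txnrd1 and Txnrd2 were followed in whole-blood RNA sequencing of 2 rat models of hypertension. These 9 genes were chosen by name from the 17446 genes counted, and all 9 are listed there, with Arrdc4 at 0 counts in 2 libraries. Txnip had been seen to be lower after treatment in both models, and the others were added for their family and pathway, so the after-against-before values of these genes are given as a description without a p-value.

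All rats were male Wistar rats of the wild type, 12 to 14 weeks old. In the AngII model, angiotensin II was infused at 0.4 mg/kg/day. In the DOCA–HS model, deoxycorticosterone acetate was given weekly at 100 mg/kg, with 0.9% NaCl and 1% KCl in the drinking water. Chios mastic gum (CMG), a plant resin, was then given at 220 mg/kg for 4 weeks. Each model had 2 libraries before CMG administration (week 1 for AngII, week 3 for DOCA–HS) and 2 after it (week 5 and week 7). No library of untreated rats, or of hypertensive rats left without CMG to the later time, was analysed here, so every difference between after and before also holds 4 further weeks of the model, and the effects of CMG and of time cannot be told apart. The labels do not say whether the libraries of a group came from separate rats, nor whether equal replicate numbers mark the same rat, so p-values measure the spread between these libraries only.

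The total counts per library lay between 4149104 and 13205565. Hemoglobin genes took 61.9% to 84.3% of them, and 651764 to 4490083 counts fell on other genes. The second DOCA–HS library after CMG stood apart, as it had the lowest total, the highest hemoglobin share and 2686 genes with at least 10 counts, where the other libraries had 6097 to 8280. Levels are CPM after TMM scaling over all 8 libraries (normalized CPM), and they are not corrected for transcript length, so they are compared between libraries and not between genes. Summed markers of erythroid cells reached 14570 to 52493 normalized CPM, and summed markers of heart muscle stayed at or below 0.703. In bulk blood, fewer cells of a type and less RNA per cell cannot be told apart.

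Thioredoxins are small proteins that reduce disulfide bonds in other proteins, and thioredoxin reductases recharge them with electrons from NADPH. Txn1 and Txnrd1 work in the cytosol, and Txn2 and Txnrd2 in mitochondria. Txnip, an alpha-arrestin, binds reduced thioredoxin and holds back glucose uptake, and its gene is one of the best known targets of the glucose-sensing factors MondoA and ChREBP. Arrdc1 to Arrdc4 share its arrestin fold and act as adaptors that bring ubiquitin ligases of the NEDD4 type to membrane proteins. Arrdc4 is a further target of MondoA, and Txnrd1 is a known target of the oxidative stress factor NRF2.

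Promoter windows of the 250 bases before the start of a gene were searched in RefSeq sequences of the GRCr8 assembly. There, 8 of the 9 genes matched with 9 windows. The gene with no entry was Txnip. The E-box core CACGTG, a building block of the glucose-response element, was found in 1 of these 9 windows, that of Arrdc4, and in 5.59% of 33469 windows of all genes. The motif TGACNNNGC, a core of the element that NRF2 binds, was searched on both strands and was found in 2 of the 9 windows, those of Arrdc4 and Txnrd1, and in 10.1% of all windows. A stretch for each motif is printed to show where it lies, with the motif in capitals.
Arrdc4, E-box 177 bases before the start, chr1:131793570-131793629, minus strand: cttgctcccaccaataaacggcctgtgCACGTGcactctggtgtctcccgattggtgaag
Txnrd1, NRF2-type motif on the other strand, 78 bases before the start, chr7:22755947-22756009, minus strand: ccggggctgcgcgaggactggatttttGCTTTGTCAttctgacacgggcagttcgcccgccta
A match is a description of letters in a window and does not show binding.

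Txnip had the largest difference of the 8 genes tested, and it lay in the same direction in both models. Before CMG administration it reached 534 and 445 normalized CPM under AngII and 243 and 254 under DOCA–HS. After CMG it stood at 87.0 and 89.9 under AngII and at 57.8 and 39.4 under DOCA–HS. Every library after CMG lay below every library before it, also across the models. The counts behind the values were 6788 and 2634 before and 544 and 1215 after CMG under AngII. Under DOCA–HS, they were 4378 and 2394 before and 752 and 56 after, with the lowest count in the shallow library.

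**Figure D1:**
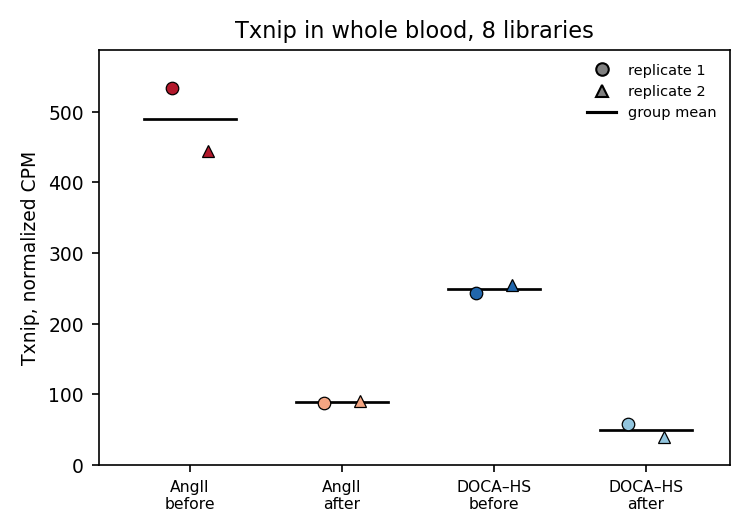
Txnip in normalized CPM (vertical axis, from 0) in the 4 groups of libraries, with circles for replicate 1, triangles for replicate 2 and a bar at each group mean. The 4 libraries before CMG sit between 243 and 534, and the 4 after it between 39.4 and 89.9.

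The group means of Txnip were 489 ± 62.7 before and 88.4 ± 2.01 after CMG under AngII (SD, n = 2), which was −2.45 on the log2 scale (standard error, SE, 0.39, edgeR), or 5.46-fold lower. Under DOCA–HS, the means were 248 ± 8.34 and 48.6 ± 13.04 (SD, n = 2), which was −2.34 on the log2 scale (SE 0.56), or 5.07-fold lower. A fit over both models gave an average log2 fold change of −2.41 (SE 0.31), or 5.30-fold lower. Counted from the lowest log2 fold change, Txnip stood 5th of 7201 genes under AngII, 8th of 7720 under DOCA–HS and 3rd of 7994 in the average.

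By the criterion of the study, an absolute log2 fold change above 1.5 together with an unadjusted p no higher than 0.05, Txnip was the 1 gene of the 8 tested that was downregulated, in each model and in the average. Of all genes tested, 0.333% were downregulated under AngII, 0.259% under DOCA–HS and 0.163% in the average. These shares stand beside Txnip for scale only, since this contrast chose it. None of the 8 was upregulated, against 0.903%, 1.79% and 0.163% of all genes. The median log2 fold change of the 8 genes was 0.07 under AngII, 0.24 under DOCA–HS and 0.25 in the average, and that of all genes tested was −0.01, −0.04 and 0.03. At an adjusted p-value under 0.05, edgeR called 0 genes of the whole table in each of these 3 fits, where 479, 245 and 312 genes (6.65%, 3.17% and 3.9%) had an unadjusted p of at most 0.05, and DESeq2 called 3, 0 and 8.

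**Figure D2:**
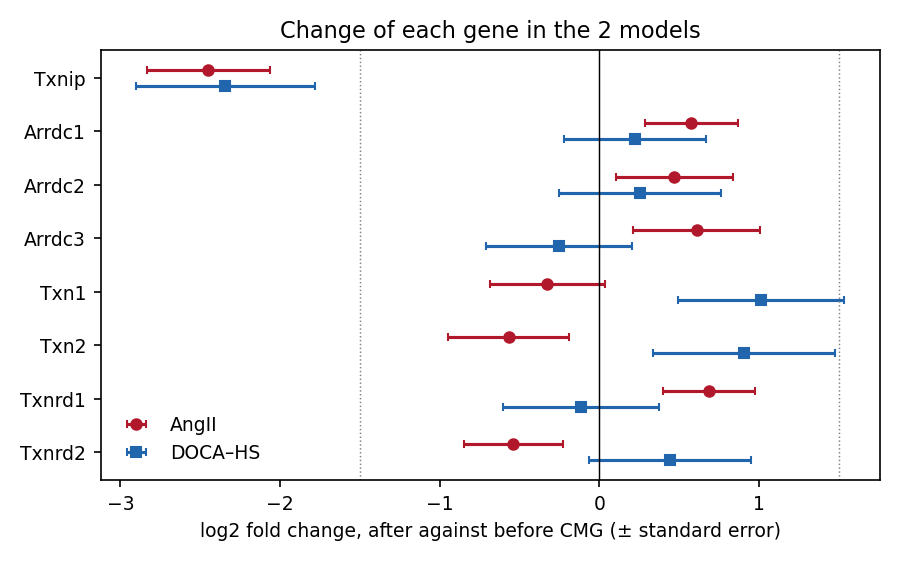
Log2 fold change after against before CMG (horizontal axis, bars are standard errors) of the 8 genes tested, with circles for the AngII and squares for the DOCA–HS model, and dotted lines at −1.5 and 1.5. Txnip lies at −2.45 and −2.34, and the other 7 genes between −0.57 and 1.01.

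Scaling matters in blood, where a few hemoglobin transcripts take most counts, so Txnip was also divided by other genes counted in the same library. The ratio of Txnip to Txn1 counts was 11.4 and 7.20 before and 1.65 and 2.76 after CMG under AngII. Under DOCA–HS, it was 8.83 and 8.28 before and 1.46 and 0.500 after. Relative to the thioredoxin that it binds, the Txnip transcript was lower after CMG by a mean log2 difference of −2.08 in one and −3.32 in the other model. Against Arrdc1, the ratio was 98.4 and 77.5 before and 9.54 and 12.2 after CMG under AngII, and 37.7 and 36.3 before and 8.26 and 4.31 after under DOCA–HS. The libraries after CMG were the lower ones by each of these ratios, and no groups of a model overlapped.

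Markers of T cells were lower after CMG in both models with no overlap, as 4.51% of 7118 single genes were, but by less than Txnip. Their summed level was 200 to 214 normalized CPM before and 146 to 181 after CMG under AngII, and 212 to 222 before and 134 to 167 after under DOCA–HS. Per count of these 8 markers, Txnip was 2.66 and 2.08 before and 0.596 and 0.497 after CMG under AngII, a mean ratio 4.33-fold lower. Under DOCA–HS, it was 1.09 and 1.20 before and 0.346 and 0.293 after, 3.60-fold lower. Markers of cytotoxic lymphocytes moved the other way, from 30.8 to 33.3 before up to 58.4 to 67.0 after CMG under AngII, and from 19.7 to 36.0 up to 40.4 to 58.4 under DOCA–HS. Under AngII, monocyte markers also lay higher after CMG (514 to 515 against 405 to 415) and neutrophil markers lower (205 to 233 against 234 to 245). Under DOCA–HS, platelet markers lay higher (604 to 956 against 208 to 292) and B cell markers lower (33.8 to 67.7 against 80.8 to 109). Each of these classes overlapped in the other model.

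Across 14 denominators, the 7 other genes tested and 7 classes of blood cell markers, the ratio of Txnip was lower in both libraries after CMG than in both before in 14 of 14 cases under DOCA–HS and in 13 of 14 under AngII. The exception was the platelet markers, whose summed level ran from 175 to 615 normalized CPM in the AngII libraries before CMG and from 59.3 to 553 in those after it. The mean log2 change of the ratios ran from −3.43 to −1.61 under AngII and from −4.00 to −1.41 under DOCA–HS. The smaller size under DOCA–HS was against B cell markers, 2.65-fold lower. All these ratios hold the contrast that chose Txnip, so a lower ratio was to be met with most denominators. They describe the size of the difference and are no test of it.

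**Figure D3:**
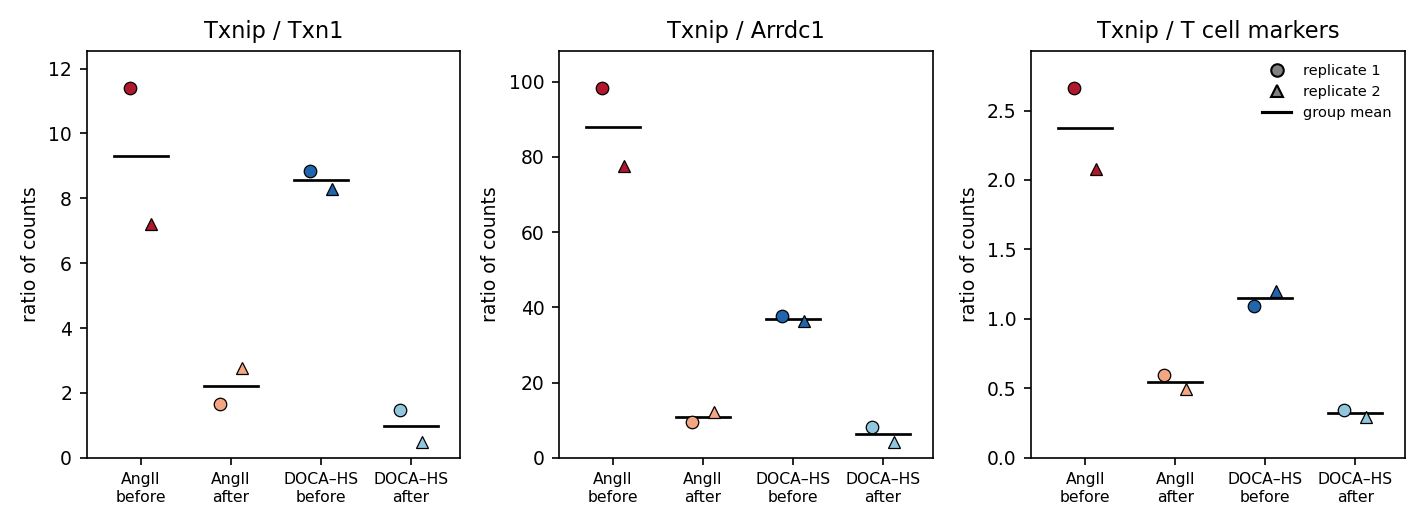
Ratio of Txnip counts to the counts of Txn1, Arrdc1 and the summed T cell markers in the same library (vertical axes, from 0) in the 4 groups, with a point for each library and a bar at each group mean. In all 3 panels both libraries after CMG lie below both libraries before it in each model.

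No other alpha-arrestin met the criterion. Arrdc1, which takes part in the budding of vesicles from the cell surface, was at 5.42 and 5.74 normalized CPM before and 9.12 and 7.40 after CMG under AngII, with no overlap. Under DOCA–HS, Arrdc1 was at 6.43 and 7.01 before and 6.996 and 9.14 after, where the groups overlapped. Its log2 fold changes were 0.58 (SE 0.29) and 0.22 (SE 0.45), opposite in sign to those of Txnip, although total counts turned the second to −0.60, with a median of all genes of −0.76.

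Arrdc2, a lesser known relative, was at 4.01 and 6.42 before and 5.12 and 8.58 after CMG under AngII, and at 6.09 and 8.07 before and 6.15 and 11.95 after under DOCA–HS. Its groups overlapped in both models, with log2 fold changes of 0.47 (SE 0.37) and 0.26 (SE 0.51), the second −0.67 under total counts. Without the second AngII library after CMG the first value was 0.03, without the first AngII library before CMG it was 0.12, and without the second DOCA–HS library after CMG the second value was −0.18. Arrdc3, an adaptor in the degradation of beta-adrenergic receptors, was at 4.01 and 2.87 before and 7.04 and 3.85 after under AngII, with overlap and a log2 change of 0.61 (SE 0.40). Without the first AngII library after CMG that value was 0.09. Under DOCA–HS, Arrdc3 was at 3.77 and 4.36 before and at 3.61 and 2.81 after CMG, which was −0.25 on the log2 scale (SE 0.46), and the lowest level rested on 4 counts.

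Arrdc4, the closest relative of Txnip in sequence and regulation, was hardly counted in blood. It had 3 and 1 counts before and 2 and 4 after CMG under AngII, and 2 and 0 before and 6 and 0 after under DOCA–HS. A count of 0 allows up to 3 counts, so the libraries cannot be ranked, and Arrdc4 was not tested.

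**Figure D4:**
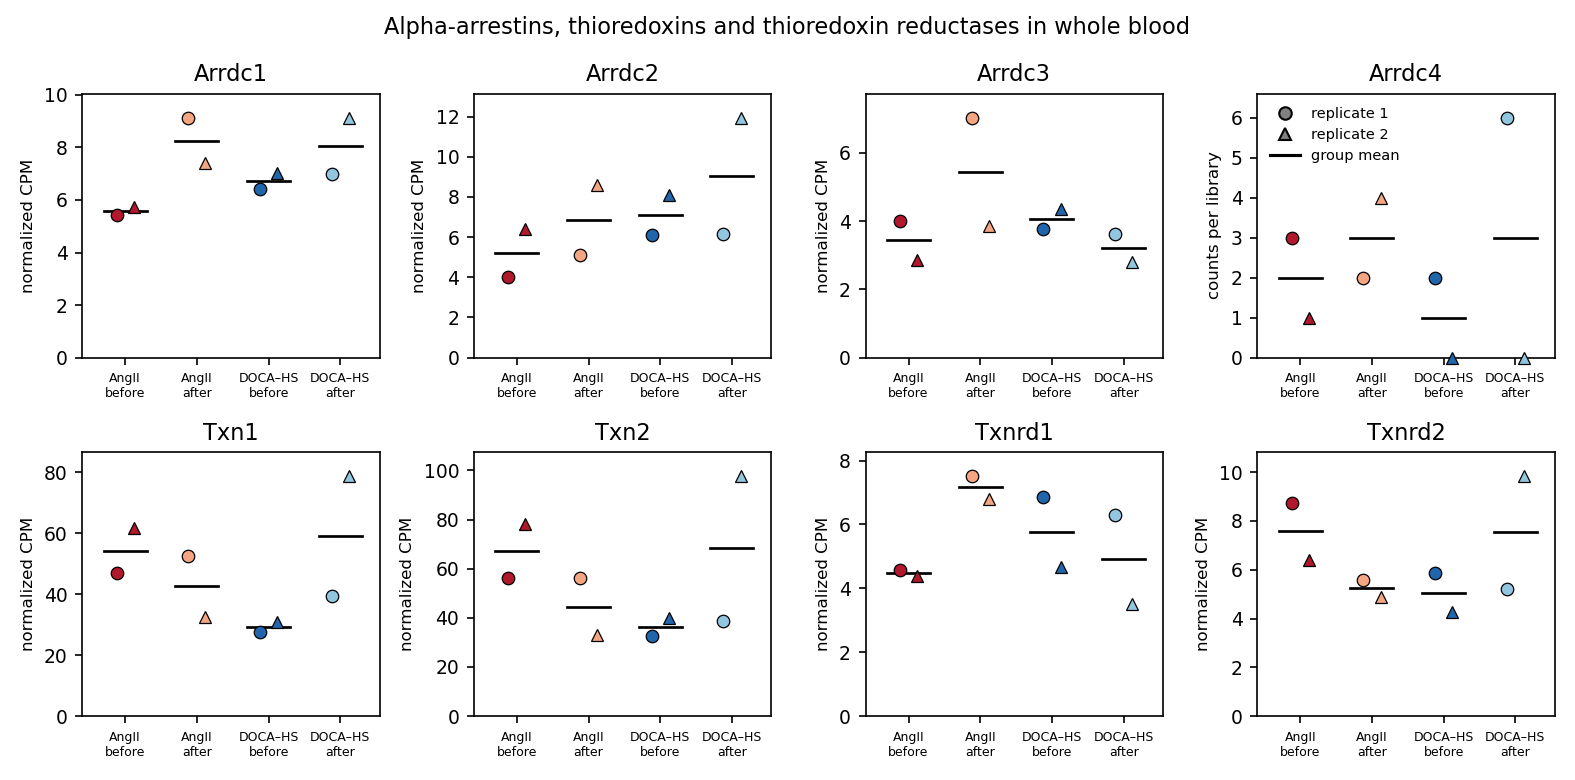
Levels of the other 8 genes in the 4 groups of libraries, in normalized CPM, or in counts per library for Arrdc4 (vertical axes, from 0), with a point for each library and a bar at each group mean. The second DOCA–HS library after CMG is the highest for Arrdc1, Arrdc2, Txn1, Txn2 and Txnrd2 and the lowest for Arrdc3 and Txnrd1.

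Overlap between the groups was counted for all genes in the same way. Under AngII, 2 of the 8 genes tested lay lower after CMG with no overlap, Txnip and Txnrd2, and 2 lay higher, Arrdc1 and Txnrd1, where 18.5% and 21.3% of all genes did so. Under DOCA–HS, 2 lay lower, Txnip and Arrdc3, and 1 lay higher, Txn1, against 21.1% and 14.7% of all genes. Txnip alone lay lower in both models, as 4.51% of 7118 genes did.

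The thioredoxins Txn1 and Txn2 had similar patterns over the libraries. Txn1 was at 46.8 and 61.8 normalized CPM before and 52.6 and 32.5 after CMG under AngII, and Txn2 at 56.2 and 78.4 before and 56.3 and 32.8 after. Under DOCA–HS, Txn1 was at 27.5 and 30.7 before and 39.5 and 78.8 after, and Txn2 at 32.7 and 39.7 before and 38.9 and 97.7 after. The high value of both came from the shallow second DOCA–HS library after CMG, and the lowest from the first DOCA–HS library before CMG. The ratio of Txn2 to Txn1 counts held between 0.984 and 1.29 over all 8 libraries, although one protein is cytosolic and the other mitochondrial. Under AngII this ratio was 1.20 and 1.27 before and 1.07 and 1.01 after CMG, with no overlap. Under DOCA–HS it was 1.19 and 1.29 before and 0.984 and 1.24 after, with overlap.

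The log2 fold change of Txn1 was −0.32 (SE 0.36) under AngII and 1.01 (SE 0.52) under DOCA–HS, and that of Txn2 was −0.57 (SE 0.38) and 0.91 (SE 0.57). Without the second DOCA–HS library after CMG, the values under DOCA–HS were 0.45 for Txn1 and 0.12 for Txn2. Scaled by total counts, they were −0.05 and −0.26, with a median of all genes of −0.76, and so 0.71 and 0.50 relative to that median.

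Erythroid markers moved with both thioredoxins. The summed level of the 10 erythroid markers found, out of 11 listed, was 28611 to 37621 normalized CPM before and 18387 to 28615 after CMG under AngII, and 14570 to 21444 before and 15495 to 52493 after under DOCA–HS. Over the 8 libraries the normalized CPM of Txn1 spanned a 2.87-fold range, but per 1000 erythroid marker counts it kept between 1.43 and 2.55, a 1.78-fold range. For Txn2 a 2.99-fold range in normalized CPM became a 1.41-fold range, from 1.79 to 2.51 per 1000 erythroid marker counts. Txnip behaved in the opposite way, with a 13.6-fold range in normalized CPM and a 24.9-fold range per 1000 erythroid marker counts, from 0.750 to 18.6. Normalized CPM rests on TMM factors from 0.343, in the second DOCA–HS library after CMG, to 1.88, in the first before it. These factors scale the thioredoxins and the erythroid markers alike and drop out of the ratios. Per count outside hemoglobin, Txn1 and Txn2 also varied less than in normalized CPM, so the narrower range was not particular to erythroid markers.

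**Figure D5:**
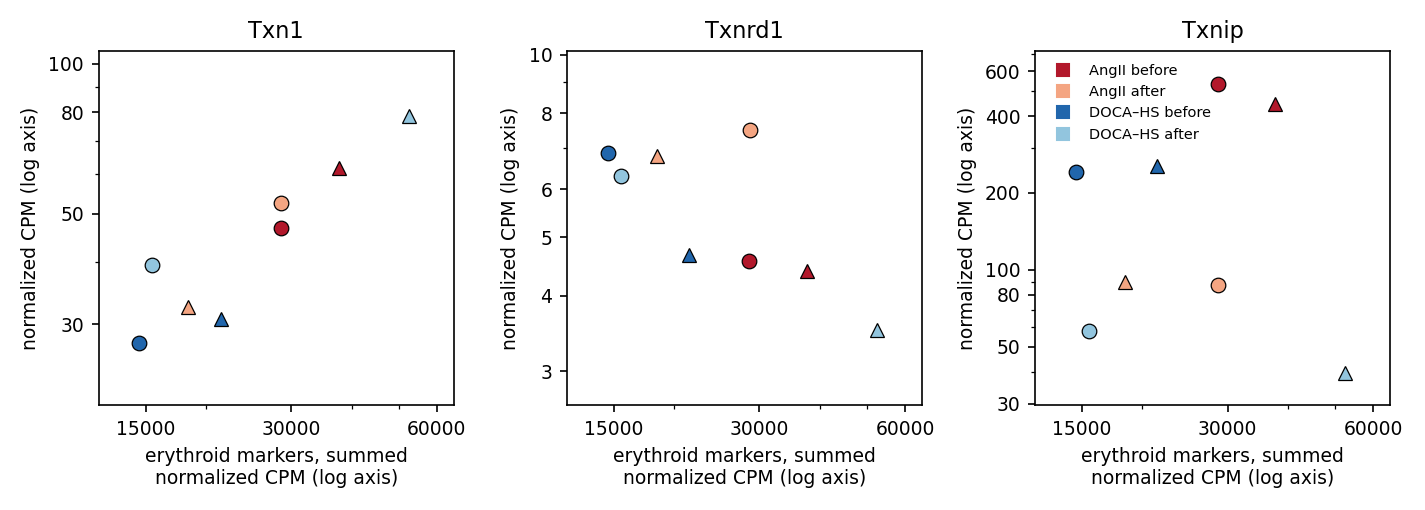
Normalized CPM of Txn1, Txnrd1 and Txnip (vertical log axes) against the summed normalized CPM of 10 erythroid markers (horizontal log axis) in the 8 libraries, coloured by group, with circles for replicate 1 and triangles for replicate 2. Txn1 lies highest and Txnrd1 lowest in the library richest in erythroid markers, the second DOCA–HS library after CMG, while Txnip splits the libraries into before and after CMG.

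Txnrd1, the cytosolic reductase, was at 4.56 and 4.39 normalized CPM before and 7.52 and 6.80 after CMG under AngII, with no overlap and a log2 change of 0.69 (SE 0.29). Under DOCA–HS, Txnrd1 was at 6.87 and 4.67 before and 6.30 and 3.52 after, with overlap and a log2 change of −0.12 (SE 0.49). Its lowest level, in the shallow library, rested on 5 counts. Unlike Txn1, Txnrd1 varied more against erythroid markers, over a 7.04-fold range from 0.0670 to 0.471 per 1000 marker counts, than in normalized CPM, over a 2.14-fold range.

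Txnrd2, the mitochondrial reductase, was at 8.72 and 6.42 before and 5.60 and 4.88 after CMG under AngII, with no overlap and a log2 change of −0.54 (SE 0.31). Under DOCA–HS, Txnrd2 was at 5.87 and 4.25 before and 5.23 and 9.84 after, with overlap and a log2 change of 0.44 (SE 0.51). Without the second DOCA–HS library after CMG that value was 0.04, and under total counts it was −0.54. In sign, Txnrd2 was thus with Txn1 and Txn2 in both models. Under total counts these genes were negative in both models, and relative to the median of all genes they were positive under DOCA–HS. Under total counts outside hemoglobin, Txnrd2 was −0.05 under DOCA–HS, where Txn1 was 0.42 and Txn2 0.26. Txnrd1 had the opposite sign under AngII. Under DOCA–HS its sign was not stable, as its value was 0.14 without the first library before CMG and 0.12 without the second library after it.

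Over the 8 libraries, log2 levels of Txn1 and Txn2 had a Pearson correlation of 0.97, and those of Txnrd2 had 0.73 with Txn1 and 0.75 with Txn2. Txnrd1 had −0.60 with Txn1, −0.73 with Txn2 and −0.62 with Txnrd2, and 0.65 with Arrdc3. Txnip had −0.86 with Arrdc1 and between −0.58 and −0.02 with the other 6. These 8 points share their libraries, scaling and groups, so the values are a description.

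Whether the change over the treatment period differed between the models was tested as the difference of the 2 log2 fold changes, DOCA–HS minus AngII, in a fit over all 8 libraries. For Txnip that difference was 0.12 (95% interval −1.23 to 1.48, adjusted p = 0.979, edgeR's quasi-likelihood test). The interval leaves room for a difference of more than 2-fold either way. None of the 8 genes met the criterion in this test, against 2.25% of 7994 genes higher and 0.913% lower, and 0 of the 8 had an unadjusted p of at most 0.05, as 3.74% of all genes did. DESeq2 called 1 of them, Txn2, and with the replicate block Txn1 (1.31) and Txn2 (1.39) passed that p but stayed below the fold of the criterion.

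The thioredoxins came nearest. The difference was 1.36 for Txn1 (95% interval −0.06 to 2.78, adjusted p = 0.881, edgeR) and 1.49 for Txn2 (95% interval −0.09 to 3.08, adjusted p = 0.881, edgeR). Under total counts these differences were −0.04 and −0.003, with a median of all genes of −1.21, and so 1.16 and 1.20 relative to that median. Under total counts outside hemoglobin they were 0.43 and 0.52, with a median of −0.89. Besides the scaling, both values leaned on the after libraries of the DOCA–HS model. Without its second library they were 0.80 and 0.71, and without its first they were 1.77 and 2.01 and met the criterion, as did Txnrd2 at 1.51. Without the first AngII library after CMG, Txn1 at 1.73 and Txn2 at 1.92 met it as well. For Txnrd2, Txnrd1 and Arrdc3 the differences were 0.96, −0.77 and −0.85, with an adjusted p of 0.881 each in edgeR, and for Arrdc1 and Arrdc2 they were −0.35 and −0.22.

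Before CMG administration, the models were compared at week 3 (DOCA–HS) and week 1 (AngII), so model and time cannot be told apart. Txnip was lower under DOCA–HS by a log2 difference of −0.98 (SE 0.43, 95% interval −1.94 to −0.02, adjusted p = 0.992, edgeR), or 1.97-fold. Its 4 levels did not overlap, and at p of at most 0.05 it was 1 of the 8 genes, where 3.38% of 7994 genes passed. The size stayed under the criterion, and none of the 8 met it, against 0.425% of genes higher and 0.413% lower. Txnip no longer passed that p in 10 of 14 alternatives, among them with any 1 of the 4 AngII libraries or of the 2 DOCA–HS libraries before CMG left out, with values of −1.11 to −0.85. Scaled by total counts the difference was −0.20, with a median of all genes of 0.86, and so −1.06 relative to that median.

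Txn1 and Txn2 were lower in the DOCA–HS libraries before CMG by log2 differences of −0.90 (adjusted p = 0.992, edgeR) and −0.89 (adjusted p = 0.992), and Txnrd2 by −0.58 (adjusted p = 0.992). Scaled by total counts, the values were −0.10, −0.10 and 0.25, with a median of all genes of 0.86. Relative to that median they were −0.96, −0.96 and −0.61. Txn1 and Txn2 passed an unadjusted p of 0.05 when either DOCA–HS library after CMG was left out of the fit. With Txnip, these 4 genes lay lower with no overlap, and Arrdc1 and Txnrd1 lay higher, at 0.27 and 0.38, where 21.2% and 24.3% of all genes did so. Erythroid markers were lower in the DOCA–HS libraries before CMG too, as given above, and their part in these differences was not tested.

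After CMG administration, at week 7 against week 5, Txnip again lay lower under DOCA–HS, by a log2 difference of −0.85 (95% interval −1.82 to 0.11, adjusted p = 1.00, edgeR). Without the first DOCA–HS library after CMG it was −1.19 and passed an unadjusted p of 0.05, and without the second it was −0.61. Txnip, Arrdc3 and Txnrd1 lay lower with no overlap, as 15.9% of genes did, and none lay higher, against 10.8%. In edgeR, 0 of the 8 genes met the criterion or had a p of at most 0.05, where 2.79% of genes passed that p, and 1.09% were higher and 0.313% lower by the criterion. The other 7 differences ran from −0.64 for Arrdc3 to 0.60 for Txn2. The order of the groups by Txnip was therefore AngII before, DOCA–HS before, AngII after and DOCA–HS after CMG, and at an adjusted p of 0.05 the models were not set apart before or after CMG.

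The genes whose pattern over the 8 libraries was most like that of Txnip were taken from 2623 genes with at least 10 counts in every library, by the Pearson correlation of log2 levels. They were Hnrnpul1 (0.97), Eef1g (0.96), Eif3m (0.95), Npm1 (0.94) and Hnrnpa1 (0.92). Their own span was narrower than that of Txnip. Hnrnpa1 ran from 64.9 normalized CPM, in the second AngII library before CMG, to 23.2, in the second DOCA–HS library after it. Eef1g, a translation elongation factor, was at 161 and 158 normalized CPM before and 113 and 126 after CMG under AngII. Under DOCA–HS, Eef1g was at 151 and 137 before and 107 and 89.3 after. The most opposite were Pi16 and Tnpo3 (−0.95 each), Cnot6l, Metrnl and Cdc5l (−0.93 each). Pi16 was at 2.52 and 2.36 before and 4.48 and 4.51 after under AngII, and at 3.77 and 3.51 before and 5.30 and 8.44 after under DOCA–HS.

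The wider pathways around Txnip are given as counts, beside the shares of all genes, which were 0.903% upregulated and 0.333% downregulated under AngII and 1.79% and 0.259% under DOCA–HS. Among 39 listed genes of the thioredoxin fold or dependent on thioredoxin, 30 could be tested in each model, and 0 were called in either direction in edgeR, with 0 at an unadjusted p of at most 0.05, while DESeq2 called 1 higher under DOCA–HS. The most abundant, Prdx2, the peroxiredoxin of red cells, had log2 fold changes of −0.24 (SE 0.59) and 1.41 (SE 0.97), and Glrx5, which serves the making of iron-sulfur clusters, −0.54 (SE 0.47) and 1.54 (SE 0.97). Both showed the signs of Txn1 and Txn2. Under DOCA–HS both also peaked in the shallow library after CMG, with Prdx2 at 10612 and Glrx5 at 3412 normalized CPM. The first library after CMG had 3397 and 550. Of the 19 arrestin-fold genes and NEDD4-type ligases, 15 and 16 were tested and 0 called, again with 0 at that p and 0 by DESeq2. Among them, Nedd4l, a ubiquitin ligase, had log2 fold changes of −0.57 (SE 0.38) and 0.40 (SE 0.47), and Tsg101, a sorting protein that Arrdc1 recruits, −0.42 (SE 0.35) and 0.75 (SE 0.54). After CMG under DOCA–HS, Tsg101 was at 23.0 normalized CPM in the first library and 53.4 in the shallow one.

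Of the 31 genes of glucose sensing, uptake and glycolysis, 23 were tested, and 2 were upregulated under DOCA–HS (1.79% of all genes) and 0 under AngII (0.903% of all genes), where 1 had an unadjusted p of at most 0.05 and DESeq2 also called 0. Hk2, the hexokinase of insulin-responsive tissues, was at 1.55 and 1.70 normalized CPM before and 2.84 and 14.8 after CMG under DOCA–HS, which was 2.12 on the log2 scale (SE 0.78, adjusted p = 0.997, edgeR). Slc2a4, the insulin-dependent glucose transporter that Txnip helps to internalise, was at 1.94 and 3.93 before and 7.69 and 20.4 after, which was 2.18 on the log2 scale (SE 0.63, adjusted p = 0.997, edgeR). Both values peaked in the shallow library, and 0 of the 23 were called without it, as also without the first DOCA–HS library before CMG or under total counts. Under AngII, the log2 fold changes of Hk2 and Slc2a4 were 0.36 (SE 0.37) and −0.32 (SE 1.20).

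Of the 17 NRF2 pathway genes, 15 were tested and 0 called in either model in edgeR, with 1 in each at an unadjusted p of at most 0.05 and 0 by DESeq2. The most abundant were the ferritin chains, with log2 fold changes in the AngII and DOCA–HS models of −0.26 (SE 0.57) and 1.40 (SE 0.96) for Ftl1 and of −0.21 (SE 0.61) and 1.33 (SE 0.85) for Fth1. After CMG under DOCA–HS, Ftl1 was at 3616 normalized CPM in the first library and 11012 in the shallow one, and Fth1 at 5308 and 5685. Of the 9 glucocorticoid-induced genes, 8 were tested, and 1 was downregulated under AngII (0.333% of all genes) and 0 under DOCA–HS (0.259% of all genes), where 0 had an unadjusted p of at most 0.05 and DESeq2 called 0. It was Klf9, at 11.2 and 4.56 before and 2.56 and 3.03 after CMG under AngII, which was −1.51 on the log2 scale (SE 0.45, adjusted p = 0.628, edgeR). Klf9 lost the call without the first AngII library before or after CMG, with a replicate block and where each library needed at least 10 counts. Under total counts and total counts outside hemoglobin 0 genes of this list were downregulated.

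In the test of the difference between the models, 2 of 31 thioredoxin-related genes were higher by the criterion, where 2.25% of all genes were, namely Prdx4, a peroxiredoxin of the endoplasmic reticulum, at 1.63 (adjusted p = 0.881, edgeR), and Srxn1, which repairs peroxiredoxins, at 2.58 (adjusted p = 0.881, edgeR). Srxn1 had 2 to 31 counts in a library. Before CMG, 1 of the 31 was lower under DOCA–HS by the criterion, where 0.413% of all genes were. It was Srxn1, at a log2 difference of −1.62 (adjusted p = 0.992, edgeR). Of the 8 glucocorticoid-induced genes, Cebpd, a transcription factor of myeloid cells, was lower in the difference at −1.77 (adjusted p = 0.881, edgeR), where 0.913% of all genes were. Per1, a clock gene, was lower under DOCA–HS before CMG at −1.85 (adjusted p = 0.992, edgeR), against 0.413% of all genes. These calls were not stable. Alternatives that kept every library gave 0 to 3 thioredoxin-related genes higher in the difference and 0 to 1 lower before CMG. For the glucocorticoid-induced genes they gave 0 to 1 lower in each of these comparisons.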

How the data were processed

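Rat whole-blood RNA was sequenced by the authors, who aligned the reads to the rn6 genome with HISAT2, assigned them to genes by strand with HTSeq and deposited the counts, not normalized. Hemoglobin genes, which the methods describe as removed, are still listed in the deposited counts. Groups follow the sample titles.

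Here, edgeR 4.0.16 (R 4.3.3) was run with filterByExpr, TMM, estimateDisp, glmQLFit and glmQLFTest: the 4 libraries of a model for after against before CMG, the model as covariate for the average, and 4 group means over 8 libraries for differences between models. Benjamini-Hochberg adjustment ran over all genes tested. Log2 levels used a prior count of 2. Ratios used raw counts. Tests were checked on simulated counts. The genes, lists and naming rule (genes of a list that met the criterion, otherwise the 2 most abundant tested) were chosen with earlier results of these data known. Arrdc4 failed filterByExpr. RefSeq tables (GRCr8) gave promoters only, and no coordinates were matched to rn6. Alternatives were DESeq2 1.42.0, other scalings and filters, a replicate block, 1 joint fit and each library left out. Replicate libraries were not copies of each other, as chi-square over degrees of freedom was 15.4 to 94.6 within groups.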

Additional observations from a re-analysis of the deposited data

How the results depend on the processing

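The log2 fold change of Txnip after against before CMG was negative and beyond −1.5 in 39 of 39 alternatives over the 2 models and the average, from −2.95 to −2.06. In the AngII model it was −2.09 under total counts and −2.06 under total counts outside hemoglobin, and in the DOCA–HS model −2.95 and −2.69 under these and −2.58 where each library needed at least 10 counts. With 1 library left out it ran from −2.62 to −2.32 in the AngII model, from −2.66 to −2.09 in the DOCA–HS model and from −2.54 to −2.32 in the average, where the lone library of a group is assumed to vary like the other groups. For the difference between the models, the number of the 8 genes called higher was 0, against 1 with DESeq2 and 0 to 3 with 1 library left out, and it was 2 without AngII after replicate 1 and 3 without DOCA after replicate 1. These shifts follow from the scaling, the genes kept or the libraries kept, and no further cause was tested.

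The lower Txnip of the DOCA–HS model before CMG lost its unadjusted p of at most 0.05 in 10 of 14 alternatives, with values of −1.11 to −0.20. Of the values of all 8 genes, Txnip included, 287 of 308 kept their sign after against before and 313 of 338 between the models, and 27 of the latter changed side of that p. Total counts moved the median of all genes to 0.36 for AngII and −0.76 for DOCA–HS, and turned the signs of Arrdc1, Arrdc2, Txn1, Txn2 and Txnrd2 in the DOCA–HS model. Over all genes tested, the number called moved widely, from 65 upregulated under AngII to between 11 and 225, from 24 downregulated to between 11 and 305, and under DOCA–HS from 138 to between 0 and 606 and from 20 to between 1 and 1106. The number of genes with an adjusted p under 0.05 depends on the fit, as the replicate block gave 165 in the AngII model, 0 in the DOCA–HS model, 0 in the average and 5 in the difference.

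Libraries of equal number in a model deviated together (correlation 0.474 for AngII and 0.321 for DOCA–HS), but with 2 pairs per model the numbers are not taken as pairing. With the replicate block, the log2 fold change of Txnip was −2.44, −2.37 and −2.42 in the AngII model, the DOCA–HS model and the average. Comparisons of the models before or after CMG could not be fitted with it.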
